A study of Arabidopsis thaliana with 12 samples.

Results

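The regions described here are TOPLESS (TPL) peaks that shared no base with a peak of any HD-ZIPIII protein. They made up 7560 of the 12785 TPL peaks on the 5 nuclear chromosomes of Arabidopsis thaliana (59.1%, Wilson 95% interval 58.3 to 60.0). The peaks were chosen by the overlap of the deposited intervals. A TPL peak was kept when it overlapped no REV, PHB, PHV, ICU4 or ATHB8 peak by 1 bp or more, and such peaks are called free peaks below. The other 5225 TPL peaks (40.9%) overlapped at least 1 HD-ZIPIII peak and are called overlapping peaks. The series mapped the binding of these 6 proteins by ChIP-seq in whole seedlings, 10 days old, of the Landsberg erecta ecotype (Ler). Of its 12 samples, 6 were immunoprecipitations and 6 were inputs. In the TPL samples the TPL locus carried a C-terminal 2xYPet-3xHA translational fusion, and in the HD-ZIPIII samples the REV, PHB, PHV, ICU4 or ATHB8 locus carried the same tag. All immunoprecipitations used an anti-GFP antibody, which recognises the YPet fluorescent protein. A list from untagged plants was not among those analysed, and neither were the input samples' own files.

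With 1 peak list per protein there was no replicate error, and no test of a difference between groups of peaks was made. Intervals cover counting error only. The depth behind the lists is unknown, and how depth bears on the number of overlaps was not tested. The HD-ZIPIII lists held 5814 REV, 2790 PHB, 2872 PHV, 8964 ICU4 and 4813 ATHB8 nuclear peaks. Seedlings were processed whole, so the cell types that gave each peak cannot be told apart.

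TPL is a co-repressor of the Groucho/Tup1 type. It has no DNA-binding domain of the usual kind and is brought to genes by transcription factors and adaptors that carry an EAR motif, such as the Aux/IAA repressors of auxin signalling and, through the adaptor NINJA, the JAZ repressors of jasmonate signalling. At genes it acts with histone deacetylases. The HD-ZIPIII proteins are homeodomain leucine-zipper transcription factors known for upper (adaxial) leaf identity, the shoot meristem and the vasculature.

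The ICU4 list, the longest of the HD-ZIPIII lists, removed most of the TPL peaks that were not free. An ICU4 peak lay on 4857 TPL peaks, which is 38.0% of the TPL list, and 6177 ICU4 peaks (68.9% of that list) lay on a TPL peak. For 2570 of the 5225 overlapping peaks (49.2%) ICU4 was the sole HD-ZIPIII protein. The counts of overlapping peaks with 1 other sole protein were 113 for PHV, 111 for PHB, 70 for REV and 26 for ATHB8. PHB peaks lay on 1727 TPL peaks (13.5% of the TPL list) and 76.6% of PHB peaks lay on a TPL peak. ATHB8 peaks lay on 347 TPL peaks (2.71% of the TPL list) and 9.599% of ATHB8 peaks lay on a TPL peak. Without the ICU4 list, 10130 TPL peaks would have been free. The free share was much the same along the genome, from 57.6% of the TPL peaks of chromosome 3 to 60.1% of those of chromosome 5.

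Free peaks were the weaker and narrower part of the TPL list. Fold enrichment, the authors' ratio of immunoprecipitated signal to local background for each peak, had a median of 2.81 in free peaks (quartiles 2.26 and 3.82, highest 13.9) and 4.46 in overlapping peaks (quartiles 2.88 and 6.86, highest 17.8). The difference of the medians, free minus overlapping, was -1.65. The median −log10 q was 15.7 in free peaks and 51.6 in overlapping peaks, and the median pileup at the summit was 92.7 in free peaks and 164 in overlapping peaks. Free peaks had a median width of 468 bp, and overlapping peaks one of 801 bp. The distributions overlapped widely, since the upper quartile of the free peaks lay above the lower quartile of the overlapping ones.

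The free share fell with strength. When the TPL list was cut by fold enrichment into 10 classes of equal number, the free share was 77.2% in the weakest class, 70.8% in class 5, 48.0% in class 8, 34.3% in class 9 and 15.5% in the strongest class (198 of 1279 peaks, interval 13.6 to 17.6). It lay between 73.6% and 77.2% over the first 4 classes, and the decline lay in the stronger ones. These values describe the peaks that the overlap rule chose. The median width also grew with strength, and a wide peak has more bases on which another peak can fall.

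**Figure D1:**
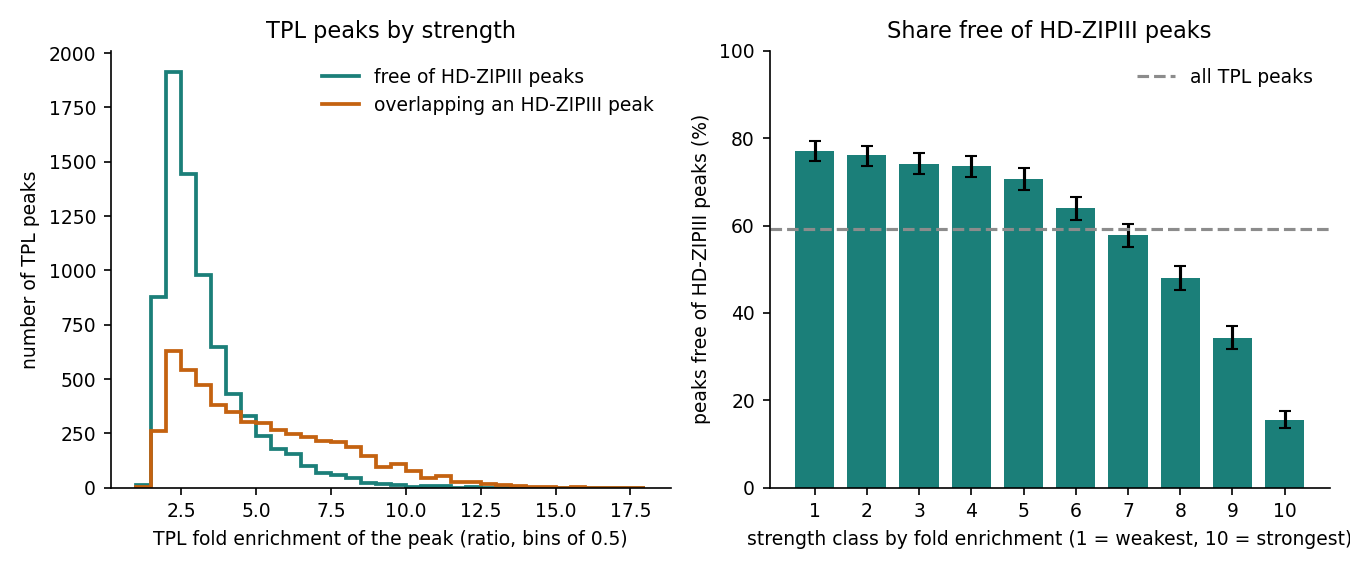
Left, number of TPL peaks by fold enrichment (ratio, bins of 0.5) for peaks free of HD-ZIPIII peaks and peaks overlapping an HD-ZIPIII peak. Right, share of peaks free of HD-ZIPIII peaks in 10 classes of the TPL list by fold enrichment, from the weakest (1) to the strongest (10), with Wilson 95% intervals; the dashed line is the share in the whole list, 59.1%, and the bars go down to 15.5% in the strongest class.

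Width changed how free and overlapping peaks compared. In the narrowest of 4 width classes of equal number, 285 to 403 bp, 82.6% of peaks were free and the median fold enrichment was 2.28 in free peaks and 2.22 in overlapping peaks. In the second class, 403 to 564 bp, 72.0% were free and the medians were 2.98 in free and 3.06 in overlapping peaks. In the third class, 564 to 888 bp, 53.7% were free, with medians of 3.47 in free and 4.26 in overlapping peaks. In the widest class, 888 to 6971 bp, 28.3% were free, with medians of 4.58 in free and 6.32 in overlapping peaks. The lower strength of free peaks was therefore seen among the wider peaks, and in the narrowest class the difference had the opposite sign, at 0.0659.

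**Figure D2:**
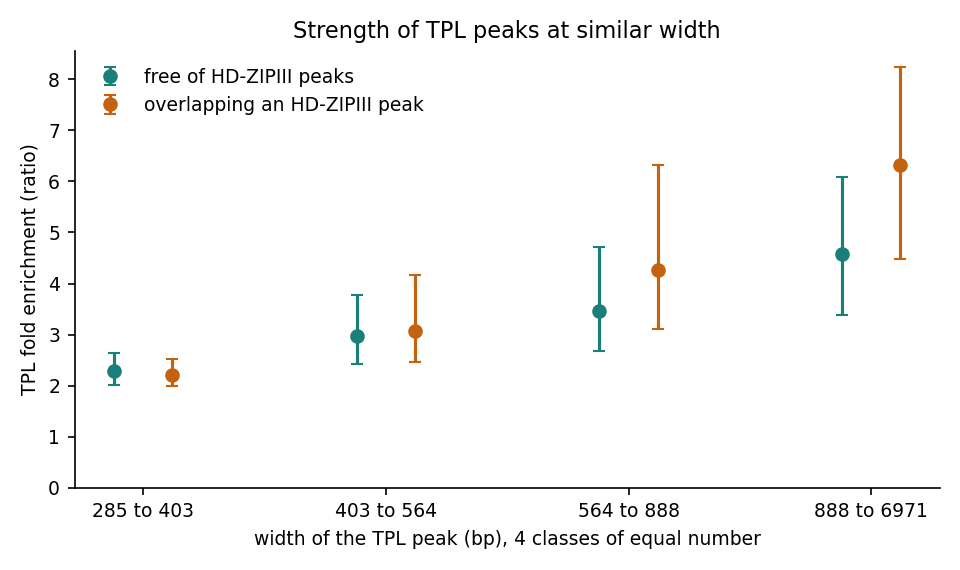
Median fold enrichment (ratio) of TPL peaks free of HD-ZIPIII peaks and of TPL peaks overlapping an HD-ZIPIII peak, within 4 classes of the TPL list by peak width (bp); bars run between the quartiles. The medians are 2.28 and 2.22 in the narrowest class and 4.58 and 6.32 in the widest.

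Most free peaks were kilobases away from the nearest HD-ZIPIII peak. The gap had a median of 3243 bp, quartiles of 1268 and 7422 bp and a maximum of 60311 bp. It was over 10 kb for 1326 free peaks (17.5%), at most 1000 bp for 1542 (20.4%), at most 200 bp for 173 (2.29%) and at most 50 bp for 41 (0.542%). Strength hardly followed the gap, with a median fold enrichment of 2.72 in free peaks within 1000 bp of an HD-ZIPIII peak and 2.85 in those over 10 kb away. Just inside the limit, the 41 free peaks with a gap of at most 50 bp had fold enrichments of 1.54 to 5.95 with a median of 2.25. Just outside it, 56 peaks that overlapped by at most 50 bp had fold enrichments of 1.57 to 7.51 with a median of 2.53.

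Free peaks lay mostly in or close to genes. The summit was inside a protein-coding gene for 3600 free peaks (47.6%, interval 46.5 to 48.7), against 2767 overlapping peaks (53.0%, 51.6 to 54.3). It was outside but within 2000 bp for 3451 free peaks (45.6%) and 2223 overlapping peaks (42.5%). It was farther away for 509 free peaks (6.73%, 6.19 to 7.32) and 235 overlapping peaks (4.50%, 3.97 to 5.09). Of all bases of the 5 chromosomes, 54.1% were inside a protein-coding gene, 27.8% within 2000 bp of a gene and 18.0% farther away. Both kinds of TPL peak thus had more summits within 2000 bp outside genes than the share of bases there, and fewer far from genes.

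The first 250 bp outside a gene held 18.0% of free summits and 20.7% of overlapping summits, against 7.80% of all bases. From 500 to 2000 bp the order was the other way. The band between 500 and 1000 bp held 10.6% of free and 8.06% of overlapping summits, and that between 1000 and 2000 bp held 10.2% of free and 7.005% of overlapping summits, against 7.16% and 7.45% of bases. Inside genes, 2842 of the 3600 free summits (78.9%) and 77.5% of the overlapping ones were within 500 bp of a gene end. The share of genic bases that close to an end was not computed, so these values do not measure clustering at gene ends. The gene table has no strand and no exons, so a promoter could not be told from the downstream side of a gene, nor an exon or untranslated region from an intron.

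**Figure D3:**
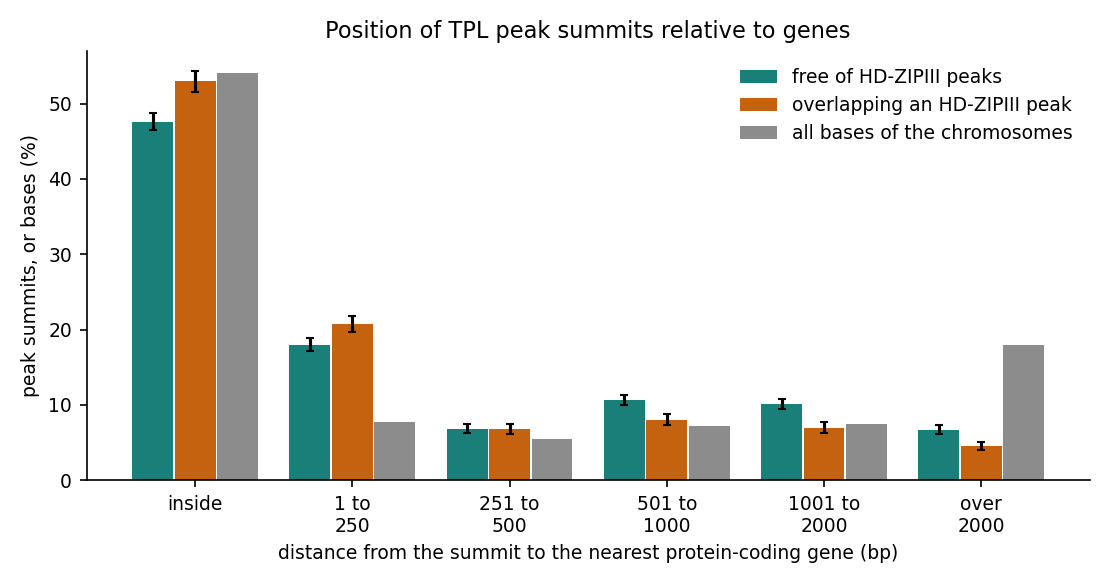
Share of TPL peak summits (%) inside a protein-coding gene and in bands of distance (bp) outside it, for peaks free of HD-ZIPIII peaks and for peaks overlapping an HD-ZIPIII peak, with Wilson 95% intervals, beside the share of all bases of the 5 chromosomes. Free summits are at 47.6% inside genes and 18.0% in the first 250 bp outside them.

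Strength rose with distance from the gene in both kinds of peak. Free peaks had a median fold enrichment of 2.56 inside genes, 3.09 within 2000 bp and 3.35 farther out, and overlapping peaks had 3.53, 5.73 and 7.29 in the same classes. The median width of the free peaks was nearly the same in the 3 classes, 461, 472 and 476 bp. Among the 198 free peaks in the strongest class of the TPL list, with a fold enrichment of at least 7.38, 43 were inside a gene (21.7%), 112 within 2000 bp (56.6%) and 43 farther away (21.7%). Of the 1081 overlapping peaks of that class, 27.3% were inside, 62.1% within 2000 bp and 10.6% farther away. Among those 198 free peaks, 41 were over 10 kb from any HD-ZIPIII peak and 27 were within 1000 bp of a peak.

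Summits also fell in genes that code for no protein. A summit lay inside a lncRNA gene for 261 free peaks (3.45%) and 255 overlapping peaks (4.88%), against 1.51% of bases. Nuclear tRNA genes, which RNA polymerase III transcribes, held 85 free summits (1.12%) and 100 overlapping summits (1.91%), against 0.0398% of bases, so that 85 of the 625 tRNA genes had a free summit. The free peaks at tRNA genes were weak, with fold enrichments of 1.55 to 4.95 and a median of 2.52, and the overlapping ones had a median of 2.92. Signal at strongly transcribed loci without an untagged control is a known limit of ChIP-seq, and its part in these peaks was not tested. Genes for miRNAs held 4 free and 3 overlapping summits.

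Among free peaks within 2000 bp of a gene, the strongest lay beside single genes of hormone and light pathways as well as genes that the table names by locus alone. Coordinates are TAIR10 positions as deposited. The highest fold enrichment of any free peak, 13.9, belonged to a peak at chr1:21227464-21228974, with its summit 1102 bp outside AT1G56630 and 19603 bp from the nearest HD-ZIPIII peak. The second among the peaks near a gene, 12.4, was at chr2:17188911-17189912, with its summit 464 bp outside GLU2, a gene for ferredoxin-dependent glutamate synthase. The third of these, 12.3, at chr3:16598214-16599699, was 478 bp outside AT3G45260 and ended only 105 bp from an HD-ZIPIII peak, so a small widening of the peaks would have removed it.

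The next peaks in this order named genes of known role. TAR2, which encodes an aminotransferase of auxin synthesis, had a free peak of 11.5 at chr4:12726011-12727521, with its summit 349 bp outside the gene. IDD4, a zinc finger transcription factor gene of the INDETERMINATE DOMAIN family, had a free peak of 11.4 at chr2:520934-522672, 117 bp outside. ACS8, for an ACC synthase of ethylene synthesis, had a free peak of 11.3 at chr4:17754682-17755499, 1034 bp outside. PKS2, for a phytochrome kinase substrate of light-dependent growth, had a free peak of 11.3 at chr1:4876955-4880310, and its 3356 bp made it the widest free peak of all. AT2G21210, for which the gene table gives the synonym SAUR6 of the auxin-responsive SAUR family, had a free peak of 11.2 with its summit 82 bp outside. AT3G22060 (11.2) and AT1G29435 (10.98, summit inside) completed the 10 genes with the strongest free peaks within 2000 bp. Of these 10 genes AT1G29435 alone had the summit inside the gene.

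Farther than 2000 bp from any protein-coding gene, the strongest free peaks fell short of the 13.9 reached near a gene. The strongest had a fold enrichment of 12.6 and lay 4020 bp from NAC067, a NAC transcription factor gene, at chr4:662761-663519. The others above 11 lay 2156 bp from AT1G69160 (12.3) and 3190 bp from ANAC087 (11.2), a second NAC gene. These peaks were given to no gene in the counts below.

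By nearest gene, free peaks marked 5910 of the 27444 nuclear protein-coding genes (21.5%), overlapping peaks marked 4409 (16.1%) and TPL peaks of either kind 9222 (33.6%). In all 7051 free peaks (93.3%) were given to a gene. Genes with both kinds numbered 1097, which is 18.6% of the genes with a free peak and 24.9% of those with an overlapping peak. Of the 5910 genes, 4813 had free peaks alone, and 4229 (71.6%) had no peak of any HD-ZIPIII list given to them. A further 607 of the 4813 had an HD-ZIPIII peak given to them, off the free peaks. Whether that peak lay on a TPL peak given to another gene was not checked.

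The share of genes given a peak grew with the size of the gene and the space around it. When genes were put in 5 classes of equal number by their own length plus the flanks nearest to them, free peaks marked 10.5% of the genes in the smallest class and 30.6% in the largest, and overlapping peaks 8.78% and 21.7%. Genes with a symbol of their own had a free peak in 26.8% of cases (2784 of 10374), and genes named by locus alone in 18.3%. Overlapping peaks showed the same order, with 21.1% and 13.0%. Because of the size effect, shares of gene lists below are set beside 21.5% and, where it matters, beside the share of all genes weighted to the same mix of sizes, called the size-weighted share. Neither comparison allows for the higher share among genes with a symbol of their own.

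Free peaks were spread thinly. A single free peak was found at 4944 of the 5910 genes, 2 at 809, 3 at 141, 4 at 14 and 5 at 2. The genes with 5 were BLH2, which encodes a BELL-type homeodomain protein of leaf shape, and CIA2, for a regulator of chloroplast protein import. At BLH2 the 5 free peaks had fold enrichments of 5.78, 2.88, 1.74, 2.64 and 2.66 from left to right, and a sixth TPL peak of 7.72 near the right end of the gene overlapped an HD-ZIPIII peak. At CIA2 the values were 3.60, 3.75, 1.90, 2.38 and 3.92, from 1688 bp left of the gene to its right end, and the nearest HD-ZIPIII peak was at least 19986 bp away. EXPA10, for a cell wall expansin, had 4 free peaks of 4.45, 3.37, 4.51 and 2.09, of which 3 lay left of the gene. AT1G27210 and AT1G61900 also had 4 each, with highest values of 4.73 and 6.03. Most of these peaks were of middling strength, and the genes were picked for the number of their free peaks.

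**Figure D4:**
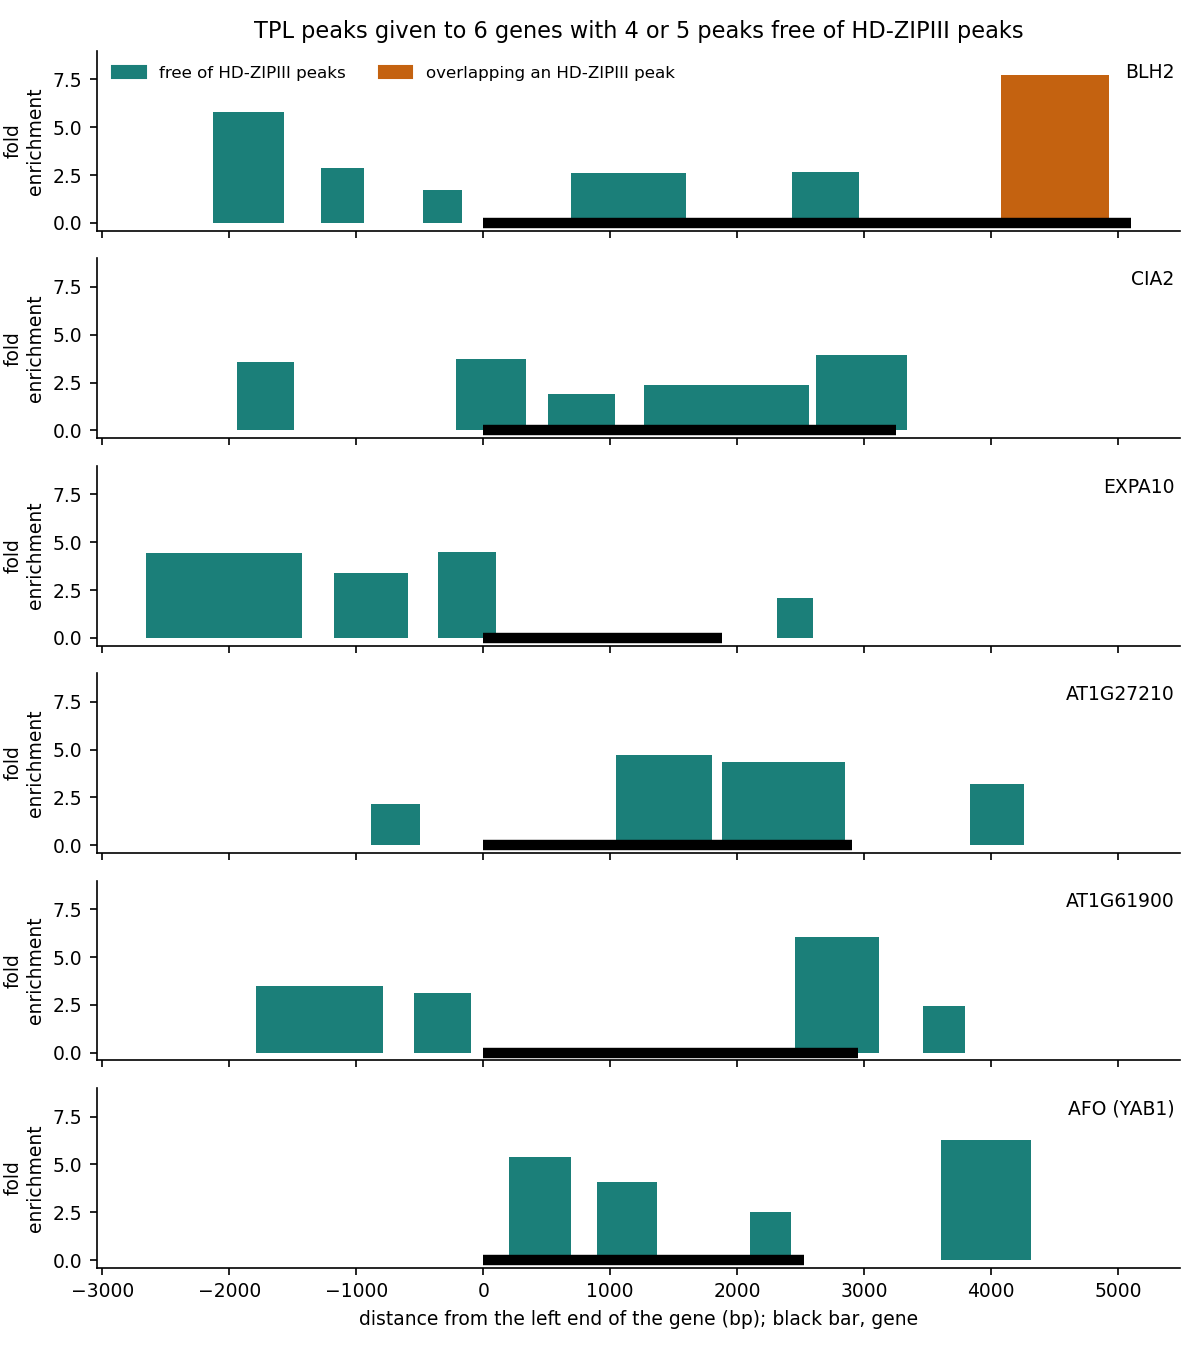
TPL peaks given to BLH2, CIA2, EXPA10, AT1G27210, AT1G61900 and AFO (YAB1). The x axis is the distance (bp) from the left end of the gene, which is the black bar, each block spans a peak, and its height is the fold enrichment (ratio); 5 free peaks stand at BLH2 and CIA2 each, beside 1 peak at BLH2 (7.72) that overlaps an HD-ZIPIII peak.

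The genes of the mapped proteins themselves split between both kinds. At TPL the only peak, chr1:5420618-5422457, overlapped an HD-ZIPIII peak and had a fold enrichment of 5.39 with a pileup of 484.9, the highest of the TPL list. The TPL gene is the locus that carries the tag in these plants, and what part the tagged copy has in that signal was not tested. TPR1, for a close TPL relative, had a free peak of 3.23, 17 bp outside the gene, and an overlapping peak of 14.2. TPR4, listed as WSIP2, had a free peak of 3.74 inside the gene. TPR2 and TPR3 had overlapping peaks alone, of 11.9 and 11.04. LUG, LUH and SEU, which encode another plant co-repressor complex, had no TPL peak.

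Of the 5 HD-ZIPIII genes 4 had a free peak (80%, interval 37.6 to 96.4), against 21.5% of all genes and a size-weighted share of 30.6%. With HD-ZIPIII peaks widened by 1000 bp the share was 20%, against 17.4% of all genes. All 4 free peaks were below the upper quartile of free peaks. PHB had 3.54 inside the gene, 554 bp from an HD-ZIPIII peak, beside an overlapping peak of 9.23. PHV had 3.35 outside the gene, 317 bp from an HD-ZIPIII peak, beside an overlapping peak of 5.60. REV had 3.21 and ATHB8 (HB-8) 2.06, both inside the gene and both without an overlapping TPL peak. Their gaps to the nearest HD-ZIPIII peak were 1654 bp at REV and 267 bp at ATHB8. ICU4 (ATHB-15) had no free peak and an overlapping peak of 2.43.

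Members of 29 gene lists and 40 gene families were counted next. A free peak was found more often than in all genes (21.5%) in 52 of the 69, and the interval lay wholly above 21.5% in 30 and below it in 2. Set beside the size-weighted share, 24 intervals lay above it and 3 below. For the 51 lists with at least 15 TPL peaks, the share of those peaks that were free was also taken, beside 58.6% over all 12041 TPL peaks given to a gene. That share had an interval wholly above 58.6% in 3 lists, wholly below it in 6 and around it in 42. Peaks at 1 gene and genes of 1 cluster are not independent, so these intervals are narrower than the true error.

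**Figure D5:**
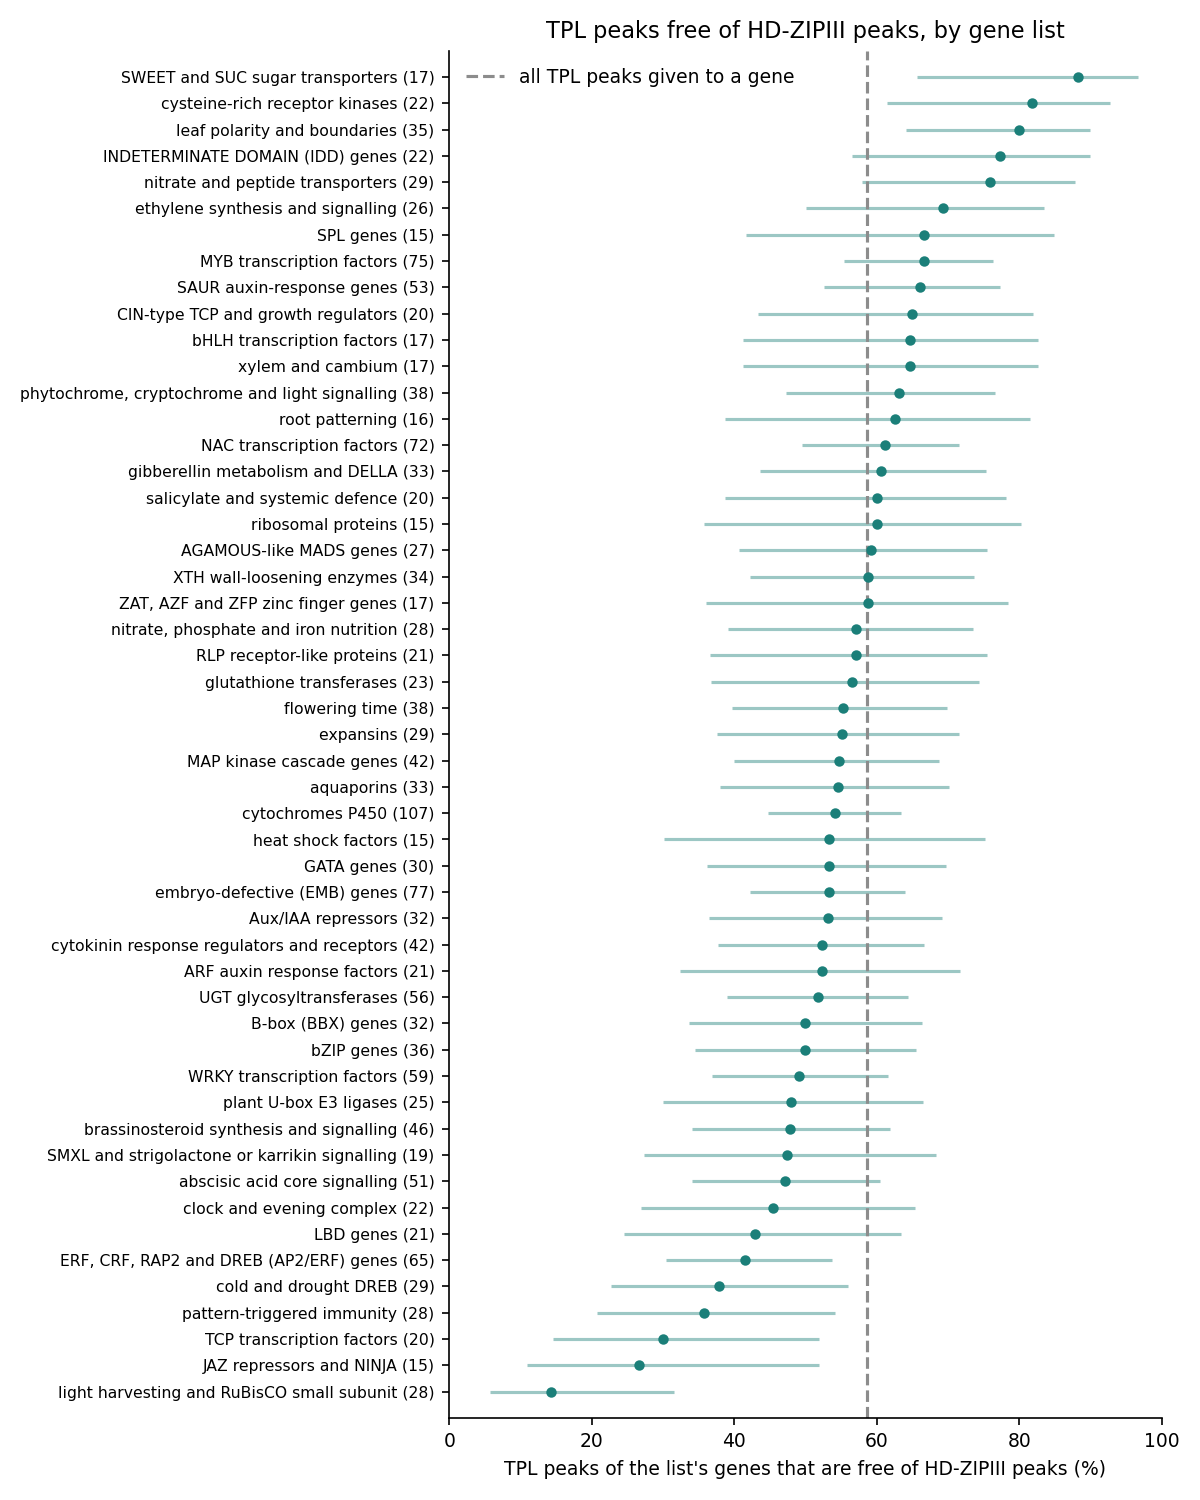
Share (%) of the TPL peaks given to the genes of each list or family that are free of HD-ZIPIII peaks, with Wilson 95% intervals, for the 51 lists with at least 15 TPL peaks (number in brackets). The dashed line is the share over all TPL peaks given to a gene, 58.6%; leaf polarity genes stand at 80.0% and light harvesting genes at 14.3%.

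Of 29 Aux/IAA genes, which encode repressors that bring TPL to auxin-responsive genes, 10 had a free peak (34.5%, interval 19.9 to 52.7, size-weighted share 22.6%) and 12 an overlapping peak, and 17 of their 32 TPL peaks were free (53.1%), so both shares had intervals around those of all genes and all peaks. The free peaks were of ordinary strength, with the highest at IAA6 (3.82), IAA14 (3.81, with 3 free peaks), IAA7 (3.27, with 3) and IAA18 (3.24, with 2), none of which had an overlapping peak. Of 13 JAZ and NINJA genes 3 had a free peak (23.1%, size-weighted share 25.3%), near the share of all genes, and 8 had an overlapping peak. Of their 15 TPL peaks 4 were free (26.7%, interval 10.9 to 52.0). Among those at or below the TPL list's median fold enrichment 2 of 4 were free. That interval, 15 to 85, held the 73.7% of all such peaks given to a gene. With only the peaks above the median −log10 q of each HD-ZIPIII list, 53.8% of these genes had a free peak, against 25.8% of all genes. The free ones were at JAZ10 (6.09, inside the gene), JAZ8 (4.73, inside) and NINJA (2.47 and 2.11). JAZ10 and JAZ8 encode JAZ repressors, and NINJA encodes the adaptor that links JAZ proteins to TPL.

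The 4 AFP genes, which encode NINJA-like adaptors of abscisic acid signalling, had an overlapping peak each and no free peak. Their size-weighted share for free peaks was 24.3%. Of 10 genes for ERF factors with an EAR motif, 6 had an overlapping peak and ERF12 alone a free peak, of 6.07, next to an overlapping peak of 10.8. The free share was thus 10% (interval 1.79 to 40.4, size-weighted share 23.8%). Over all genes 16.1% had an overlapping peak. In these small lists intervals are wide, and for the AFP genes a free peak at 0 of 4 has a Wilson upper bound of 49.0%. Both intervals held the size-weighted shares, so the lists do not differ clearly from genes of like size in free peaks.

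Gibberellin and brassinosteroid genes had free peaks in more than 50% of cases by the overlap rule. With HD-ZIPIII peaks widened by 1000 bp the shares were 38.5% and 37.9%, against 17.4% of all genes, and with the TPL peaks above the median −log10 q alone 42.3% and 27.6%, against 8.57%. Of 26 gibberellin genes, 16 had a free peak (61.5%, interval 42.5 to 77.6, size-weighted share 27.2%) and 11 an overlapping peak. The strongest were at GA2 (8.85, inside), for an early enzyme of gibberellin synthesis, GA2OX8 (5.59, inside), for an enzyme that inactivates gibberellin, GA3OX1 (5.26, inside), for the enzyme that makes the active form, and GAI (5.11), for a DELLA repressor. GAI also had an overlapping peak of 9.64 on the other side of the gene. Of 29 brassinosteroid genes, 17 had a free peak (58.6%, size-weighted share 27.05%) and 19 an overlapping peak, and 22 of their 46 TPL peaks were free.

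BEE1, for a bHLH factor induced by brassinosteroids, carried 3 strong free peaks of 8.40, 7.66 and 8.26 on both sides of and inside the gene, at chr1:6330931-6332056, chr1:6333210-6333854 and chr1:6333978-6335236. The HD-ZIPIII peak nearest to any of them lay 6492 bp away. PRE6 (KDR), for a small bHLH protein that promotes growth, had free peaks of 7.47 and 2.56. BEH3 had a free peak of 5.50 and PRE1 one of 5.05, both beside stronger overlapping peaks, of 9.32 and 12.4.

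Of 24 ethylene genes, 14 had a free peak (58.3%, interval 38.8 to 75.5, size-weighted share 27.2%) and 8 an overlapping peak, and 18 of 26 TPL peaks were free (69.2%). ACS8 had 3 free peaks, of 3.31, 1.86 and 11.3. In the ACC synthase family as a whole, 3 of 12 genes had a free peak, near the share of all genes (size-weighted share 26.6%). The receptor genes ERS1 (5.14, 33 bp outside) and ERS2 (4.98, 34 bp outside, and 2.27) had free peaks alone. EBF1, for an F-box protein that marks EIN3 for breakdown, had a free peak of 4.58 and an overlapping peak of 4.64. Of 42 abscisic acid genes 19 had a free peak (45.2%, interval 31.2 to 60.0, size-weighted share 24.9%), with the highest at CYP707A2 (8.45), for the enzyme that breaks down abscisic acid, ABI2 (6.33) and PP2CA (5.70), for phosphatases that hold the pathway back, and NCED5 (5.43), for an enzyme of its synthesis. All 4 also had an overlapping peak. Of 44 cytokinin genes 15 had a free peak (34.1%, interval 21.9 to 48.9, size-weighted share 25.8%) and 15 an overlapping peak (34.1%). Those with a free peak included IPT7 (6.61), ARR4 (6.20, with 3 peaks), LOG7 (5.40) and AHP4 (4.79).

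Leaf polarity and boundary genes had one of the highest free shares of peaks. Of 28 genes, 16 had a free peak (57.1%, interval 39.1 to 73.5, size-weighted share 28.9%) and 6 an overlapping peak. Of their 35 TPL peaks, 28 were free (80.0%, interval 64.1 to 89.96). Among the peaks of these genes at or below the TPL list's median fold enrichment, 14 of 15 were free (93.3%), with an interval of 70.2 to 98.8 that held the 73.7% of all such peaks given to a gene. WOX1, for a homeodomain protein of the leaf margin, had free peaks of 5.18 and 7.86 at chr3:6160492-6162145 and chr3:6163947-6164623. YAB1, listed as AFO, for a YABBY factor of the lower (abaxial) leaf side, had 4 free peaks, of 5.40, 4.11, 2.52 and 6.27, of which the first 3 lay inside the gene and the last 1485 bp outside it. YAB3, its paralogue, had free peaks of 2.33 inside and 4.89 outside, and BOP2, for a co-regulator at the leaf base, 1.96 inside and 4.50 outside. None of these 4 genes had an overlapping TPL peak or an HD-ZIPIII peak given to it. With the TPL peaks above the median −log10 q alone, 32.1% of the leaf polarity genes, 25% of the ethylene genes and 30.3% of the light signalling genes had a free peak, against 8.57% of all genes.

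At genes of light, clock and flowering, 18 of 33 light signalling genes had a free peak (54.5%, interval 38.0 to 70.2, size-weighted share 25.7%) and 13 an overlapping peak (39.4%). PHOT1, for a blue light receptor of phototropism, had a free peak of 10.7 at chr3:16814687-16815727, 1459 bp outside the gene, a second of 3.27 inside and an overlapping peak of 4.09. PIF7, for a bHLH factor of shade growth, had a free peak of 7.96 inside the gene beside an overlapping peak of 11.8 outside it. PHOT2 (6.43) and BBX24, listed as STO (4.71), had free peaks alone. Of 24 clock genes 9 had a free peak (37.5%, interval 21.2 to 57.3) and 12 an overlapping peak, and the interval held the size-weighted share of 24.9%. The clock genes with the highest free peaks were PRR5 (8.496), RVE2 (4.53), TOC1 (4.26, 21 bp outside) and RVE1 (4.07), and none of them had an overlapping peak.

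Of 38 flowering time genes 17 had a free peak (44.7%, interval 30.2 to 60.3, size-weighted share 27.8%) and 13 an overlapping peak (34.2%). FT, for the mobile flowering signal, had a free peak of 4.95 at chr1:24335086-24335569, 1325 bp outside the gene and 16037 bp from an HD-ZIPIII peak. SMZ, for a repressor of FT, had 4.64, VRN1 3.88 and CDF3 3.79. Among 18 genes of floral organ identity 6 had a free peak (33.3%, size-weighted share 27.5%), with the highest at SEP3 (8.35) and FUL, listed as AGL8 (5.79).

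Genes of nutrition, transport and defence were also marked. Of 30 nutrition genes 14 had a free peak (46.7%, interval 30.2 to 63.9, size-weighted share 25.2%) and 8 an overlapping peak (26.7%). Those with a free peak included NRT2.2 (9.36) and NRT2.1 (4.58), for nitrate transporters, NIA1 (7.13), for nitrate reductase, and SPX4 (4.50), for a phosphate sensor. In the family of nitrate and peptide transporters 22 of 29 TPL peaks were free (75.9%), with an interval of 57.9 to 87.8 that held the 58.6% of all peaks given to a gene. For SWEET and SUC sugar transporters the count was 15 of 17 (88.2%, interval 65.7 to 96.7), at 9 of 26 genes, with the highest at SWEET2 (6.36), SUC4, listed as SUT4 (6.14), and SWEET17 (5.19). For cysteine-rich receptor kinases it was 18 of 22 (81.8%, interval 61.5 to 92.7), at 14 of 41 genes, with the highest at CRK22 (8.86, 39972 bp from an HD-ZIPIII peak), CRK11 (7.998) and CRK3 (7.06). Among peaks at or below the TPL list's median fold enrichment, 9 of 10 were free for the sugar transporters and 8 of 9 for these kinases. Both intervals, 59.6 to 98.2 and 56.5 to 98.0, held the 73.7% of all such peaks given to a gene. The gene shares of these last families, 34.6% and 34.1%, had intervals that held their size-weighted shares of 25.9% and 25.5%.

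Pattern-triggered immunity stood lower in its share of free peaks. Of 24 such genes 10 had a free peak (41.7%, interval 24.5 to 61.2, size-weighted share 24.1%) and 14 an overlapping peak, and 10 of 28 TPL peaks were free (35.7%, interval 20.7 to 54.2). Among their peaks at or below the TPL list's median fold enrichment 6 of 12 were free (50%). That interval, 25.4 to 74.6, held the 73.7% of all such peaks given to a gene. The highest free peaks were at PUB22 (6.88), for a ubiquitin ligase that dampens immunity, FLS2 (4.72), the flagellin receptor gene, and BIK1 (4.64), for its kinase. Of 25 salicylate genes 11 had a free peak (44.0%, interval 26.7 to 62.9, size-weighted share 25.8%), with NIMIN1 (5.47) and CBP60G (4.80) the highest, and 8 had an overlapping peak (32.0%).

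Families of transcription factors were counted in the same way, without a test between them. INDETERMINATE DOMAIN genes had 17 free peaks among 22 TPL peaks (77.3%), with an interval of 56.6 to 89.9 that held the 58.6% of all peaks given to a gene. The free peaks lay at 6 of 12 genes (50%, interval 25.4 to 74.6, size-weighted share 29.9%). They included 4 at IDD5 (highest 6.43), 4 at IDD11 (5.36), 3 at IDD4 (11.4, 2.67 and 2.13) and 2 at IDD1 (8.46 and 4.67). A member without a family symbol or synonym in the gene table was not counted. This family was added after its values were seen. MYB genes had a free peak in 38 of 125 cases (30.4%, interval 23.0 to 39.0, size-weighted share 25.4%) and 50 of 75 peaks were free (66.7%, interval 55.4 to 76.3), with the highest at MYB56 (8.84) and MYB111 (8.23). NAC genes had a free peak in 32 of 100 cases (interval 23.7 to 41.7) and WRKY genes in 24 of 71 (33.8%, interval 23.9 to 45.4), and both intervals held the size-weighted shares of 24.4% and 24.95%. Among WRKY genes WRKY67 had the highest free peak, of 10.4, which lay 281 bp from an HD-ZIPIII peak. SPL genes, for factors of the juvenile to adult change, had free peaks in 9 of 18 cases (interval 29.0 to 71.0, size-weighted share 24.5%), with SPL10 at 8.75 and SPL11 at 7.29.

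AP2/ERF genes had 27 free peaks among 65 (41.5%, interval 30.4 to 53.7), although 22 of their 58 genes had a free peak (37.9%, size-weighted share 22.1%). An overlapping peak was found at 31 of the 58 genes (53.45%), against 16.1% of all genes. TCP genes had 6 free peaks among 20 (30.0%, interval 14.6 to 51.9). The list of cold and drought genes had 11 free peaks among 29 (37.9%, interval 22.7 to 56.0). Among peaks at or below the list's median fold enrichment the free counts were 13 of 20 for AP2/ERF, 5 of 6 for TCP and 8 of 11 for cold and drought genes, with intervals that held the 73.7% of all such peaks. SAUR genes, short and tightly packed, had a free peak in 28 of 80 cases (35.0%, interval 25.4 to 45.9), against a size-weighted share of 17.6%.

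Light harvesting and RuBisCO small subunit genes, which are among the most strongly transcribed genes of a green seedling, had the lowest free share of peaks among the lists with at least 15. Of 21 genes 19 had an overlapping peak (90.5%) and 3 a free peak (14.3%), and 4 of 28 TPL peaks were free (14.3%, interval 5.70 to 31.5). Among their peaks at or below the list's median fold enrichment 4 of 13 were free (30.8%, interval 12.7 to 57.6), against 73.7% of all such peaks given to a gene. The free ones were at RBCS1A (2.58 and 3.21), CAB1 (2.35) and RBCS2B (1.99). These counts rest on the overlap rule. When a TPL peak was removed only for an HD-ZIPIII summit within 100 bp of its own summit, 71.4% of the light harvesting and RuBisCO genes had a remaining peak, against 25.6% of all genes. By the overlap rule, the interval of the gene share lay wholly below the size-weighted share in 3 lists, and the light harvesting list was not among them. These were EMB genes, whose loss halts the embryo (40 of 256 genes, 15.6%, interval 11.7 to 20.6, size-weighted share 24.4%), cyclin genes (4 of 35, 11.4%, interval 4.54 to 25.95, size-weighted share 26.1%) and genes for LCR peptides (5 of 84, 5.95%, interval 2.57 to 13.2, size-weighted share 15.7%). Ribosomal protein genes had a free peak in 9 of 67 cases (13.4%), with an interval of 7.23 to 23.6 around the size-weighted share of 14.9%.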

How the data were processed

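The data were 6 peak lists, 1 for each immunoprecipitation, in the layout of MACS2. The submitters' processing notes name Bowtie2, MACS2 and TAIR10 without versions. Pooling of duplicates is not given in the sources used. Per the file headers, the pileup is the coverage signal at a summit, and p-values and q-values are −log10 values. Fold enrichment, as deposited, is a linear ratio of each peak to its local background, and it was used within the TPL list alone.

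Overlaps (at least 1 bp) and nearest genes were computed with Python 3.11.15, pandas 2.3.3 and numpy 2.4.6, and checked on simulated intervals. Each summit was given to the nearest of 27444 protein-coding genes of the RefSeq table of TAIR10.1, at most 2000 bp away; that table was used for names and distances. Wilson 95% intervals came from statsmodels 0.14.6. Of 665 list memberships, 650 matched a gene.

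The free peaks and all lists were chosen with earlier results of these data known. Family patterns were widened to synonyms, and the IDD, ACC synthase, LCR and EMB families added, after the data were seen. Named genes are TPL, its relatives and the HD-ZIPIII genes, the 10 with the strongest free peaks, the 5 with most, and up to 4 per list by fold enrichment; the far peaks, the genes at 0 and IDD1 to IDD11 as a set were chosen after their values were seen. Alternatives varied the overlap rule, the peak threshold, the lists and the gene limit. Promoter motifs were not searched, as no sequence was at hand.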

Additional observations from a re-analysis of the deposited data

How the results depend on the processing

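No paired analysis was possible because each protein had 1 peak list and no test was made. The difference in median fold enrichment, free minus overlapping, was -1.65 in the whole list. It became -1.02 with HD-ZIPIII peaks widened by 1000 bp (added after the data were seen) and -2.58 without the ICU4 list. Within 4 width classes it was 0.0659, with the sign turned, -0.0796 and -0.791 in the first 3, so it rests on the wider peaks. With the TPL list limited to peaks above its median −log10 q, 2768 peaks were free, at 2351 genes, with 34.0% of summits inside a gene and 56.7% outside but within 2000 bp. When a TPL peak was removed only for an HD-ZIPIII summit within 100 bp of its own, these shares were 51.2% and 43.0%, and with the stronger peaks of each HD-ZIPIII list alone 50.9% and 43.2%. Without the ICU4 list 49.4% of summits were inside a gene. A limit of 1000 bp left 35.5% of summits outside but near a gene, and counting every gene within 2000 bp raised the genes to 9818. Other settings left the number of free peaks between 6018 and 10130. Of 483 list shares recomputed under 7 settings, 393 stayed within their Wilson interval. In at least 1 setting 57 of the 69 lists left it, so the size of a share depends on these choices. The share of all genes moved too, from 21.5% to 8.57% with the TPL peaks above the median −log10 q alone. It was 35.8% with every gene within 2000 bp counted. The counts therefore do not show which lists moved relative to all genes. Unknown depth and the lack of replicates limit every count.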
